A study of Homo sapiens with 15 samples.

Results

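Homologous recombination and Fanconi repair genes were described in HSC-5, an established line of cutaneous squamous cell carcinoma, after CRISPR targeting of PRMT5 or of its partner WDR77. The members were 49 genes of double-strand break repair, of Fanconi crosslink repair and of the DNA damage checkpoints, taken by gene symbol from the 60649 genes that each RNA-seq library lists, and all 49 were found. The 5 conditions, with 3 biological replicates each and 15 libraries in all, were the control sgNeg (genotype label WT), sgPRMT5-1 and sgPRMT5-2 (PRMT5 Knockout), and sgWDR77-1 and sgWDR77-2 (WDR77 Knockout). The comparison asked how the repair genes differ from sgNeg with each sgRNA, between the sgRNAs of a gene, and between both targeted genes. Every condition, sgNeg included, carried the treatment label Neomycin. The sgRNA sites lay in the part of PRMT5 that codes for its catalytic domain and, in WDR77, in WD repeat 1. The series text calls the genes knocked down by sgRNA whereas the labels say knockout, and whether the cells were clones or pools was not stated. The replicates are called biological, and the methods speak of independent experiments for quantitative data in general, but whether these libraries came from separate cultures was not stated, so the p-values below measure the spread between these samples. The libraries held 5146711 to 6730428 reads on genes (median 5806938), and levels below are CPM, a gene's reads relative to all reads of its library, scaled by the trimmed mean of M values (TMM). The counts are sums over a gene, so splicing and intron retention could not be measured.

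The targeted genes were checked first. PRMT5, the arginine methyltransferase, was at 59.4, 50.4 and 67.6 CPM in sgNeg, 32.7, 35.4 and 41.2 in sgPRMT5-1, 43.1, 44.4 and 39.1 in sgPRMT5-2, 54.8, 65.4 and 55.2 in sgWDR77-1 and 80, 65.4 and 64.5 in sgWDR77-2. All 6 libraries with a PRMT5 sgRNA lay below the 3 sgNeg libraries, and the log2 fold change was -0.69 (standard error, SE, 0.131, adjusted p = 0.00413) with sgPRMT5-1 and -0.48 (SE 0.128, adjusted p = 0.00738) with sgPRMT5-2. WDR77, the WD repeat partner that binds it, was at 126, 116 and 119 CPM in sgNeg, 133, 118 and 155 in sgPRMT5-1, 123, 129.5 and 118 in sgPRMT5-2, 31, 52.9 and 54.1 in sgWDR77-1 and 26.6, 25 and 22 in sgWDR77-2. All 6 libraries with a WDR77 sgRNA lay far below sgNeg, with a log2 fold change of -1.43 (SE 0.15, adjusted p = 3.05e-06) for sgWDR77-1 and -2.29 (SE 0.167, adjusted p = 1.14e-08) for sgWDR77-2. Transcripts of both genes were therefore lower but present in the cells meant to lack them. Of the squamous keratinocyte markers, KRT17, TP63, SFN, DSG3 and KRT5 were detected in all 15 libraries, with KRT17 the most abundant at 673 to 1454 CPM. KRT14, a basal keratin, stayed at 0.168 to 0.743 CPM, near 0. These markers moved with the sgRNAs: KRT5 (log2 fold change -1.29 with sgPRMT5-1, -3.55 with sgPRMT5-2, -4.01 with sgWDR77-1 and -2.83 with sgWDR77-2) and DSG3 (-0.51, -0.90, -0.97 and -0.67) fell with each, SFN rose with sgPRMT5-1 (0.37), sgPRMT5-2 (0.42) and sgWDR77-2 (0.33), KRT17 rose with sgWDR77-2 (0.82), and TP63 was not called. The leukocyte markers summed to at most 0.193 CPM in any library, the fibroblast markers to at most 16.5 CPM (COL1A1 the most abundant), the endothelium markers to at most 36.7 CPM (CDH5) and the melanocyte markers to at most 7.59 CPM (PMEL). Against sgNeg, VWF (-2.31), PMEL (-1.43) and COL1A1 (-0.68) fell with sgPRMT5-2, and CDH5 rose with sgWDR77-1 (0.81), where the endothelium markers summed to 34.4, 31.8 and 36.7 CPM beside 23, 16.9 and 24.8 in sgNeg. The part of these markers in the repair gene values was not tested.

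Homologous recombination repairs a DNA break by copying the sister chromatid: nucleases resect the broken ends, and BRCA1 and BRCA2 with their partners prepare them to invade the intact strand. The Fanconi genes act at crosslinks, where a core complex ubiquitinates FANCD2 and FANCI so that nucleases can unhook the lesion. The kinases ATM and ATR signal breaks and stalled forks, and the Ku subunits compete for the same ends by end joining.

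In the sgNeg control, levels were compared between members as CPM per kilobase of the MANE Select transcript, since longer transcripts yield more reads. The highest were 3 of the 4 end joining genes: XRCC6, the smaller Ku subunit, at 605 ± 50.5 CPM per kilobase (SD, n = 3), XRCC5, the larger, at 145 ± 6.66, and PRKDC, the catalytic subunit of the DNA-dependent protein kinase, at 59.1 ± 7.43. The fourth, LIG4, was low at 3.9 ± 0.634. The 3 high genes did not overlap with each other or with the next gene, FANCI, at 40 ± 2.21 CPM per kilobase. The members between these and the lowest 3 lay at 2.46 to 35 CPM per kilobase. FANCM, at 1.84 ± 0.121, and RAD51D, at 1.98 ± 0.0568, were near the bottom, and RAD50 was the lowest at 0.816 ± 0.148 CPM per kilobase. The place of RAD51D depends on the 9966 bases taken as its length. Its 19.2 to 20.4 CPM lay within the 17 to 21.3 CPM of XRCC3, which had 7.39 CPM per kilobase over 2567 bases. For RAD50, 76.9% of the exon bases are shared on the same strand with another annotated gene, where reads can be counted as ambiguous, and how many were lost there was not measured. Shared exon bases also limit RAD54B (66.0%, same strand, FSBP), ATRIP (26.7%, same strand, TREX1) and, with the strand setting of the counting not given, XRCC3 (76.7%, opposite strand, KLC1), KAT5 (38.6%, RNASEH2C) and TP53BP1 (28.8%, TUBGCP4).

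**Figure D1:**
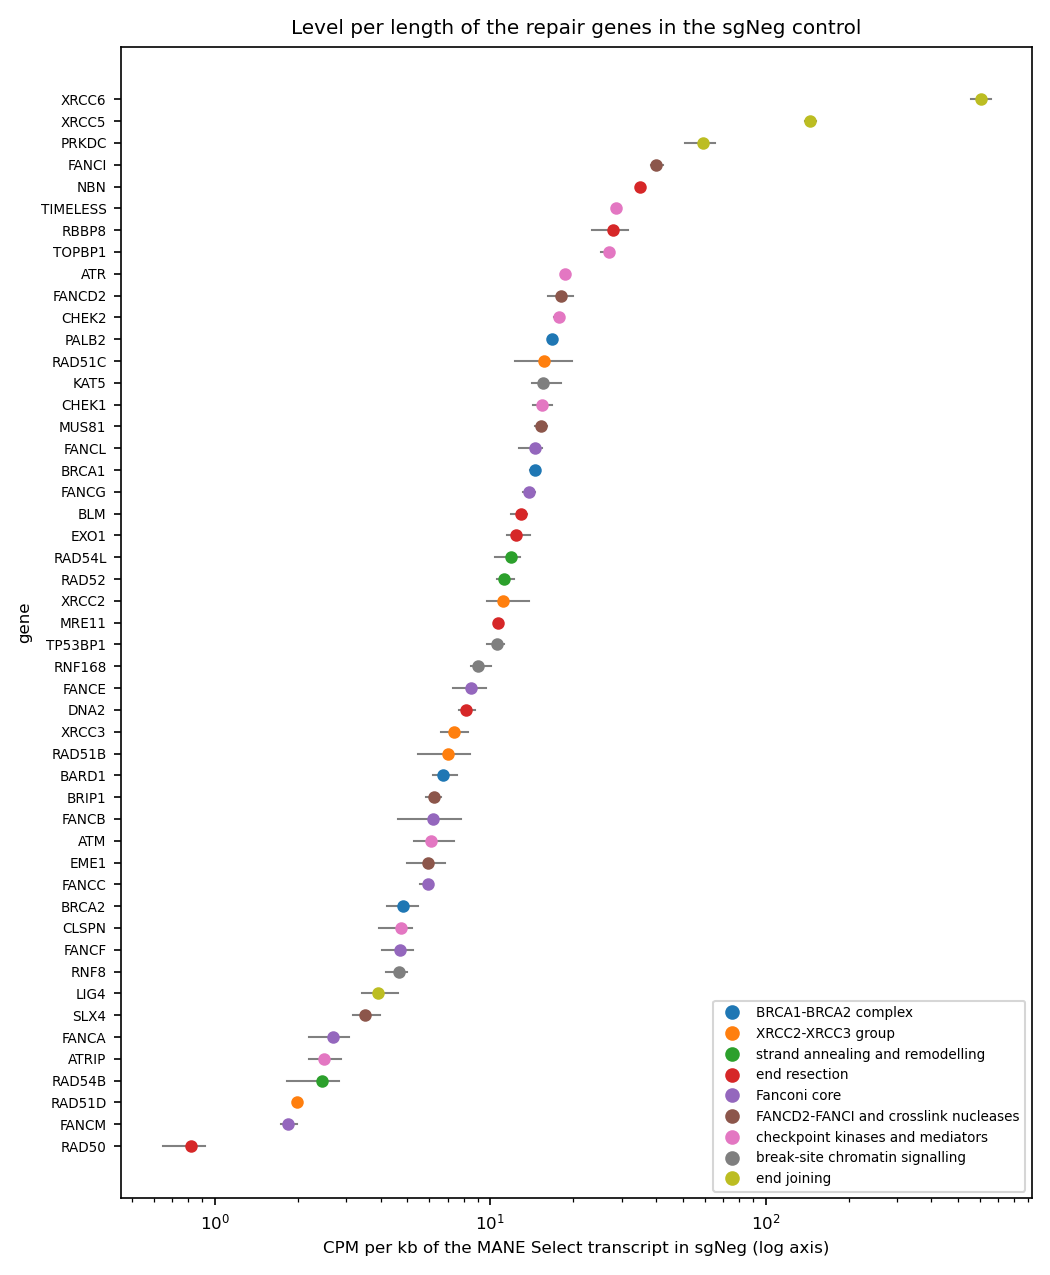
Level of the 49 repair genes in the 3 sgNeg libraries as CPM per kilobase of the MANE Select transcript, on a log axis. Points are means, lines run from the lowest to the highest library and colors give the role; XRCC6 (605), XRCC5 (145) and PRKDC (59.1) stand above the other members and RAD50 (0.816) below them.

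Most repair genes, like most genes, were called with none of the sgRNAs. Of the 49 members, all of which passed the filter on low counts, 36 (73.5%) were called in none of the 4 comparisons with sgNeg, where 63.7% of all genes were, 13 (26.5%) were called in exactly 1, where 28.6% of all genes were, and 0 were called in more than 1, where 7.71% of all genes were. These calls came from limma voom at a Benjamini-Hochberg adjusted p under 0.05 over the 14059 genes tested, and the 4 comparisons share the sgNeg libraries.

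With sgPRMT5-2 the end joining genes LIG4, XRCC5 and XRCC6, the checkpoint mediators CLSPN and TOPBP1 and the recombination gene RAD51C rose, and the Fanconi ubiquitin ligase FANCL fell. These were 6 members higher, or 12.2%, where 14.9% of all genes tested were higher, and 1 member lower, or 2.04%, where 16.0% of all genes were lower. The share of higher members was thus close to that of all genes, and the share of lower members was smaller. The median log2 fold change was 0.10 over the members and -0.02 over all genes. In 15 members (30.6%) all 3 libraries lay above all 3 of sgNeg, against 24.6% of all genes, and in 6 members (12.2%) all 3 lay below, against 26.1%. With only the libraries of both groups in the fit, 11 members (22.4%) were higher and 2 (4.08%) lower, where 20% and 20.6% of all genes in that same fit were. Upper quartile scaling gave 9 higher (18.4%, where 20.4% of all genes were). Scaling by library totals alone gave 3 lower (6.12%, where 19.2% of all genes were). Leaving out sgNeg replicate 3 gave 2 lower (4.08%, where 14.5% of all genes were).

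With sgPRMT5-1, LIG4 and CLSPN had the largest positive values, with log2 fold changes of 0.50 (SE 0.15, adjusted p = 0.082) and 0.49 (SE 0.142, adjusted p = 0.0723), and neither passed the test. limma voom called 0 members higher, against 1.06% of all genes, and 0 lower, against 1.72%, and limma-trend also called 0 in each direction. At an unadjusted p under 0.05, 6 members (RAD51C, RAD54L, CLSPN, XRCC5, XRCC6 and LIG4) were higher, against 8.38% of all genes, and 1, FANCL, was lower, against 8.49%. The 3 libraries lay above sgNeg in 13 members (26.5%), against 12.7% of all genes, and below it in 2 (4.08%), against 11.2%. The median log2 fold change was 0.12 over the members and 0.00 over all genes. Without the filter on low counts 1 member, XRCC6, was called higher, where 0.506% of all genes in that fit were, and with only the libraries of both groups in the fit 1, CLSPN, where 1.59% were. In a check added after the data were seen, leaving out sgWDR77-1 replicate 1, a library of neither group, gave 4 higher, CLSPN, XRCC5, XRCC6 and LIG4 (8.16%, where 3.13% of all genes were).

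With sgWDR77-1 the BRCA1 partners BARD1 and PALB2 and the helicase BRIP1 rose, and the Fanconi core gene FANCG fell. The 3 higher members were 6.12% of the list, where 3.77% of all genes were higher, and the 1 lower member was 2.04%, where 5.57% of all genes were lower. All 3 libraries lay above sgNeg in 6 members (12.2%), against 11.4% of all genes, and below it in 4 (8.16%), against 13.1%. The median log2 fold change was 0.05 over the members and 0.00 over all genes. Fitted with only the libraries of both groups, 0 members were called in either direction, where 0.901% of all genes were higher and 1.73% lower. Library totals alone and the replicate block each gave 4 higher, with RBBP8 added (8.16%, where 3.85% and 3.42% of all genes were). Without sgNeg replicate 1 the calls of BARD1, PALB2, BRIP1 and FANCG were lost and RBBP8 alone was called higher (2.04%, all genes 2.59%). Without sgWDR77-1 replicate 1 only BRIP1 was kept (2.04% higher, all genes 3.89%). Leaving out sgNeg replicate 3 left 0 lower (all genes 2.94%). Leaving out sgWDR77-1 replicate 2 gave 2 lower, FANCG and XRCC3 (4.08%, all genes 4.69%). Without the filter on low counts 1 was higher and 0 were lower, where 1.48% and 2.11% of all genes were.

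With sgWDR77-2 the kinase ATR and the fork protection gene TIMELESS rose. These 2 members were 4.08% of the list, where 1.76% of all genes were higher, and limma voom and limma-trend each called 0 members lower, where 3.13% of all genes were lower. At an unadjusted p under 0.05, 1 member was lower, XRCC3, against 10.3% of all genes. In 12 members (24.5%) all 3 libraries lay above sgNeg, against 12.5% of all genes, and in 1 (2.04%), XRCC3, all 3 lay below, against 12.8%. The median log2 fold change was 0.14 over the members and 0.01 over all genes. With this sgRNA 40 of 49 members and 7195 of 14059 genes had a positive value, beside 33 members and 7048 genes with sgPRMT5-1, 33 and 6762 with sgPRMT5-2, and 31 and 7072 with sgWDR77-1. Leaving out sgNeg replicate 1, sgNeg replicate 3 or sgWDR77-2 replicate 1 left 0 higher, where 1.1%, 1.17% and 1.12% of all genes were. Without sgNeg replicate 2 the calls of ATR and TIMELESS were lost and LIG4 alone was called higher (2.04%, all genes 0.848%). Without sgWDR77-2 replicate 2 only TIMELESS was kept (2.04%, all genes 0.904%). Leaving out sgWDR77-1 replicate 1, a library of neither group, gave 8 higher (16.3%, where 4.3% of all genes were), with PALB2, BRIP1, CLSPN, TOPBP1, XRCC6 and LIG4 added, in a check chosen after the data were seen. With LIG4 added, limma-trend and a filter at a mean of at least 10 each gave 3 higher (6.12%, where 1.91% and 2.23% of all genes were).

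**Figure D2:**
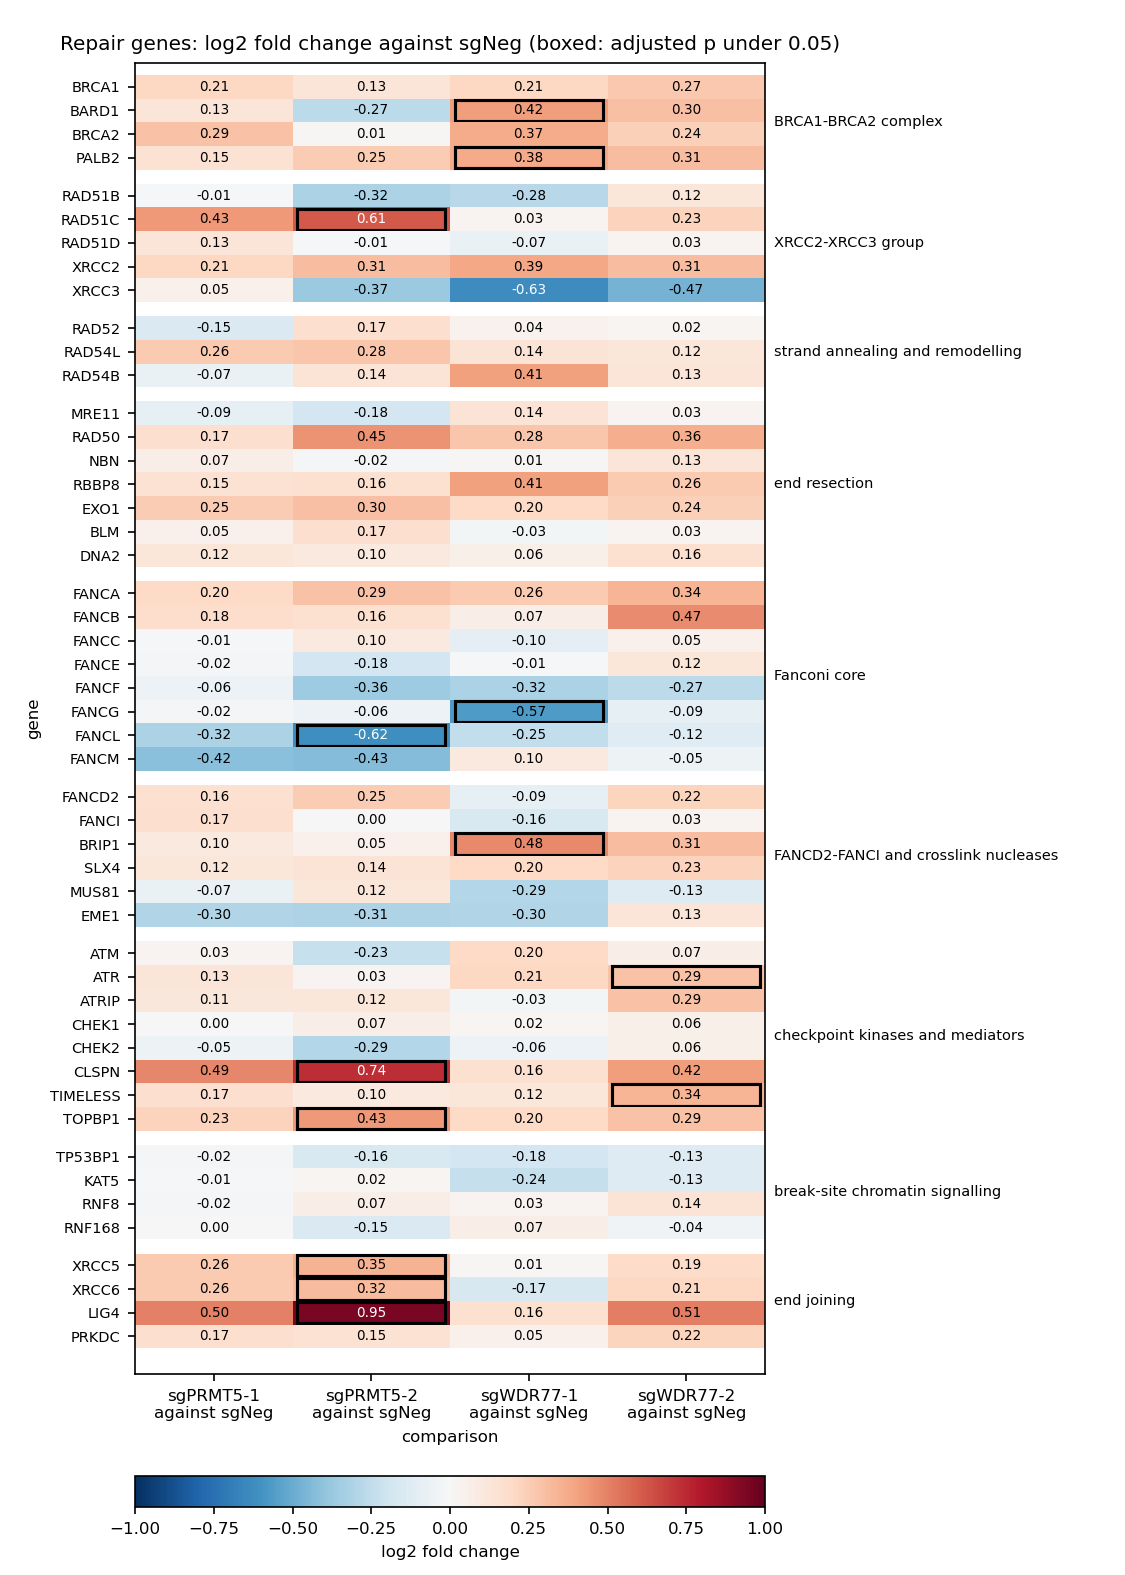
Log2 fold change against sgNeg of each of the 49 repair genes, grouped by role, for the 4 sgRNAs (3 libraries against 3), with boxes around values at an adjusted p under 0.05. sgPRMT5-2 has 7 boxes, sgWDR77-1 has 4, sgWDR77-2 has 2 and sgPRMT5-1 has 0; the values run from -0.63 (XRCC3, sgWDR77-1, not called) to 0.95 (LIG4, sgPRMT5-2).

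Among the end joining genes, LIG4 (ENSG00000174405.14, chromosome 13, 108207439 to 108218368), the ligase that seals the joined ends, was at 14.6, 18.4 and 13.6 CPM in sgNeg, 20.8, 21.5 and 23.3 in sgPRMT5-1, 31.5, 31.4 and 26.8 in sgPRMT5-2, 19.1, 16.6 and 16.1 in sgWDR77-1 and 25, 20 and 21.4 in sgWDR77-2. Its libraries lay above sgNeg with sgPRMT5-1, sgPRMT5-2 and sgWDR77-2 and overlapped with sgNeg in sgWDR77-1. With sgPRMT5-2 it was at 193% of sgNeg, a log2 fold change of 0.95 (SE 0.144, adjusted p = 4.76e-05). The test was not passed with sgWDR77-2, at a log2 fold change of 0.51 (SE 0.152, adjusted p = 0.0561). XRCC6 (ENSG00000196419.13, chromosome 22, 41621163 to 41664048), a Ku subunit that binds DNA ends, was at 1283, 1177 and 1392 CPM in sgNeg, 1471, 1478 and 1660.3 in sgPRMT5-1, 1581, 1599 and 1612 in sgPRMT5-2, 1208, 1148 and 1072 in sgWDR77-1 and 1615, 1450.4 and 1396 in sgWDR77-2. The sgPRMT5-2 libraries lay above sgNeg and close together, at a log2 fold change of 0.32 (SE 0.0823, adjusted p = 0.00564), and those of sgPRMT5-1 and sgWDR77-2 lay above sgNeg with a wider spread and did not pass the test. XRCC5, its partner in the Ku ring, was given in full after its values were seen, at 483, 470.1 and 514 CPM in sgNeg, 578, 557 and 616 in sgPRMT5-1, 622, 622 and 618 in sgPRMT5-2, 582, 472 and 433 in sgWDR77-1 and 613, 545 and 519 in sgWDR77-2. It rose with sgPRMT5-2 by a log2 fold change of 0.35 (SE 0.0948, adjusted p = 0.00837), with the 3 libraries above all of sgNeg. PRKDC, the kinase that Ku recruits, overlapped with sgNeg under every sgRNA, with log2 fold changes of 0.05 to 0.22. The calls of LIG4, XRCC5 and XRCC6 with sgPRMT5-2 held under all 14 alternatives run. Whether more RNA per cell or more cells that express these genes lie behind such values cannot be told apart in bulk RNA.

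Among the checkpoint genes, CLSPN (ENSG00000092853.14, chromosome 1, 35720218 to 35769978), the adaptor through which ATR activates CHEK1, was at 33.6, 43.2 and 44.1 CPM in sgNeg, 54.4, 51 and 63.4 in sgPRMT5-1, 69.6, 69.8 and 61.7 in sgPRMT5-2, 52.8, 45 and 37.2 in sgWDR77-1 and 63.8, 49.3 and 48.8 in sgWDR77-2. All 3 libraries lay above sgNeg with sgPRMT5-1, sgPRMT5-2 and sgWDR77-2. With sgPRMT5-2 it was at 167% of sgNeg, a log2 fold change of 0.74 (SE 0.14, adjusted p = 0.000417). TOPBP1, which activates ATR, was given in full after its values were seen, at 145, 161 and 161 CPM in sgNeg, 182, 163 and 203 in sgPRMT5-1, 216, 209 and 204 in sgPRMT5-2, 212, 177 and 153 in sgWDR77-1 and 215, 182 and 176 in sgWDR77-2. It rose with sgPRMT5-2 by a log2 fold change of 0.43 (SE 0.111, adjusted p = 0.0053), with no overlap with sgNeg. ATR, the kinase that answers stalled forks, was at 149.9, 159 and 148 CPM in sgNeg, 166, 163 and 171 in sgPRMT5-1, 156, 159 and 151 in sgPRMT5-2, 186, 179 and 166 in sgWDR77-1 and 201, 188 and 172 in sgWDR77-2. The log2 fold change with sgWDR77-2 was 0.29 (SE 0.0843, adjusted p = 0.0483), just past the threshold, and the call was lost in 10 of 14 alternatives, with adjusted p up to 0.199 without sgWDR77-2 replicate 1. TIMELESS, which protects the fork, was at 149, 148 and 145 CPM in sgNeg, 169, 164 and 165 in sgPRMT5-1, 151, 161 and 162 in sgPRMT5-2, 158, 178 and 147 in sgWDR77-1 and 207, 178 and 179 in sgWDR77-2. It rose with sgWDR77-2 by a log2 fold change of 0.34 (SE 0.0885, adjusted p = 0.0244), with sgWDR77-2 replicate 1 the highest library. That call was lost without any one sgNeg library (adjusted p 0.066, 0.0671 and 0.0741 without replicate 1, 2 and 3) or without sgWDR77-2 replicate 1 (0.135). ATM, the kinase of double-strand breaks, was at 72.7, 95.7 and 68.5 CPM in sgNeg, 79, 84.6 and 77 in sgPRMT5-1, 62.8, 70.7 and 66.7 in sgPRMT5-2, 86.8, 94.6 and 88 in sgWDR77-1 and 78.6, 83.3 and 84.3 in sgWDR77-2. Its libraries overlapped with sgNeg under each sgRNA, since sgNeg itself spread from 68.5 to 95.7 CPM. Without sgNeg replicate 3 it was called lower with sgPRMT5-2 (-0.32, adjusted p = 0.0478), and without sgNeg replicate 2 higher with sgWDR77-1 (0.35, adjusted p = 0.0429). CHEK1, the effector kinase downstream of ATR, was at 68.8, 59.1 and 62.7 CPM in sgNeg, 68.7, 57.4 and 64.9 in sgPRMT5-1, 71.1, 64.8 and 64.1 in sgPRMT5-2, 73.6, 61.8 and 58.3 in sgWDR77-1 and 67.1, 69.3 and 62.1 in sgWDR77-2. Each group overlapped with sgNeg, and its log2 fold changes were 0.00 to 0.07. CHEK2, the effector kinase of ATM, and ATRIP, the partner of ATR, did not pass the test, with log2 fold changes of -0.29 to 0.06 and of -0.03 to 0.29.

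**Figure D3:**
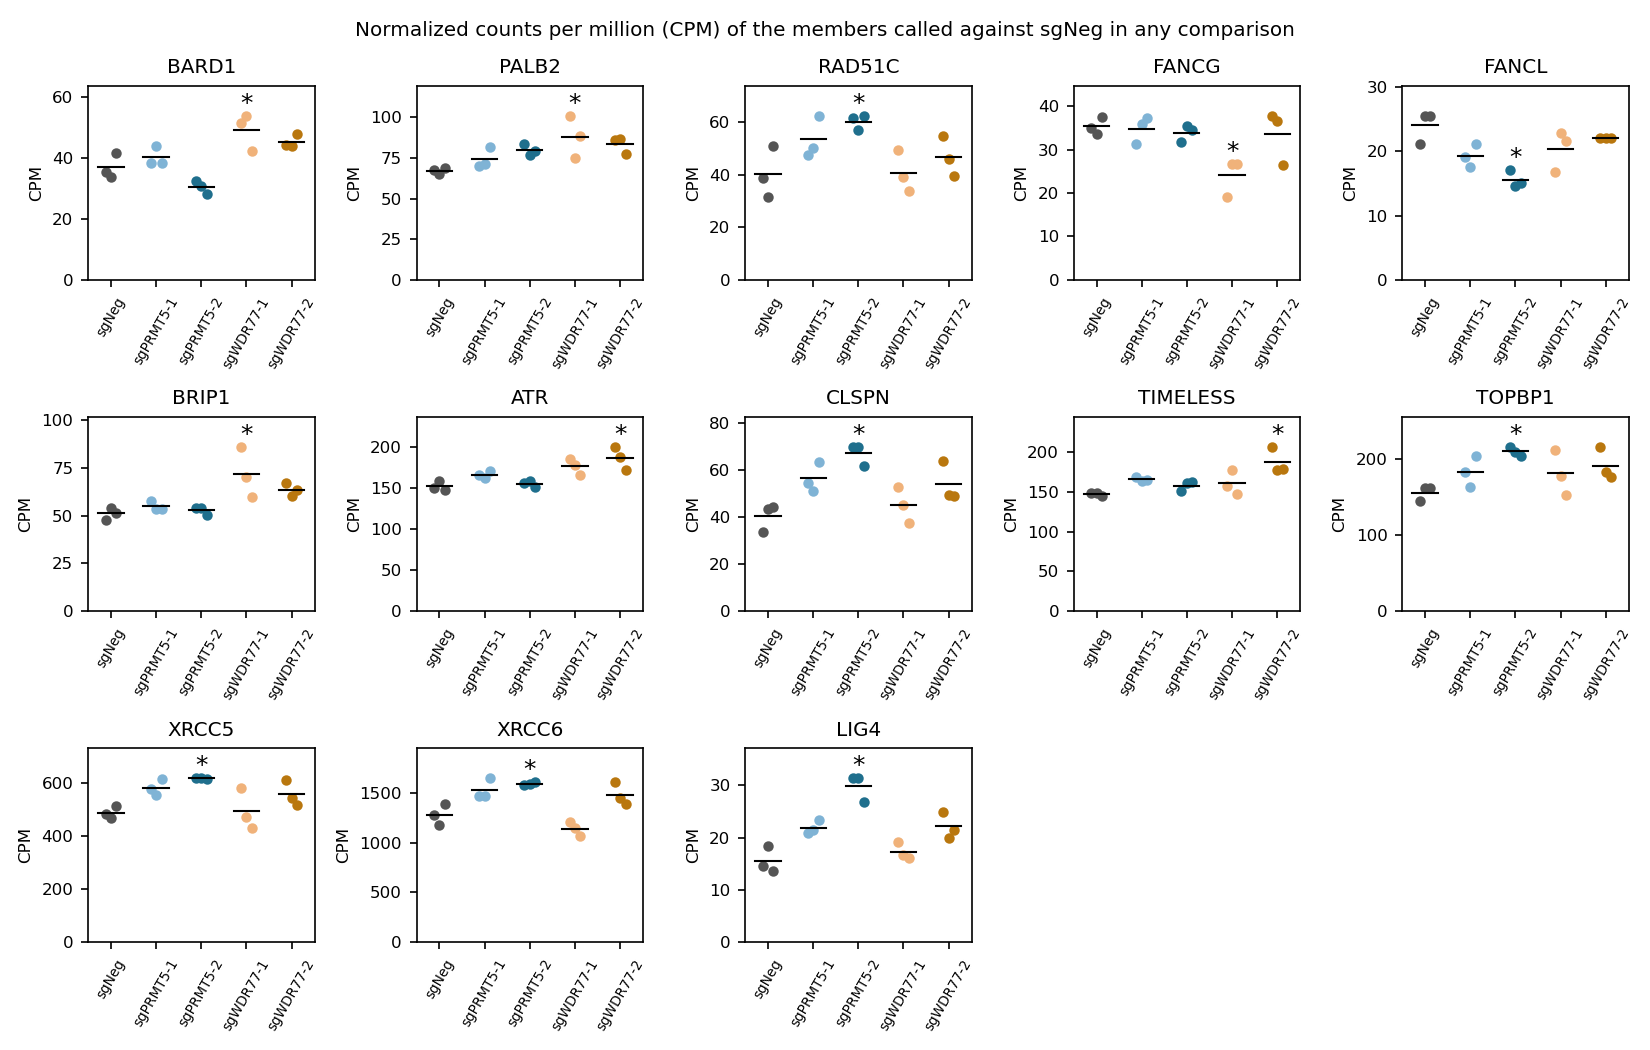
CPM of the 13 members called in any comparison with sgNeg, with 1 point per library, a line at the mean of the 3 libraries, an axis that starts at 0 and a star over each group called against sgNeg at an adjusted p under 0.05. LIG4 moves from 13.6 to 18.4 CPM in sgNeg to 26.8 to 31.5 in sgPRMT5-2, whereas the starred groups of BRIP1 and TIMELESS each hold a library well above its replicates (86.1 in sgWDR77-1 and 207 in sgWDR77-2).

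Promoter sequences were read for the members that rose with sgPRMT5-2, since cell cycle genes often carry E2F-type letters near their start. RefSeq promoters (GRCh38.p14, 250 bases before to 50 after each start) matched 43 of 49 members, all but RAD54B, NBN, DNA2, FANCI, XRCC5 and PRKDC. The letters TTTGGCGC, TTTCCCGC, TTTGCCGC or TTTCGCGC were searched on both strands. Those that end in GCGC can share these 4 letters between strands, and none of the 4 can be read as the letters of the other motifs searched. They stood in the promoters of 8 of 43 members (18.6%: XRCC2, EXO1, FANCA, FANCC, FANCD2, CLSPN, TOPBP1 and XRCC6), against 1090 of 27305 genes in the table (4.0%). Counted by start, this was 8 of 60 member windows (13.3%) and 1164 of 35116 windows in all (3.3%). The genes they are set beside were not limited to the 14059 tested, whereas all 49 members were tested. The share among the genes tested was not counted. The letters TTTGAA, known from the cell cycle homology region, stood on either strand in 3 of 43 members (7.0%), against 18.2% of all genes. CCAAT stood in 21 of 43 members (48.8%), against 39.7%. Of the 6 members higher with sgPRMT5-2, CLSPN, TOPBP1 and XRCC6 held E2F-type letters, LIG4 and RAD51C held none in their windows, and XRCC5 was not matched. How many of all genes higher with sgPRMT5-2 hold such letters was not counted, so a link between the letters and the rise was not tested. A match describes letters in a window and is not a binding site. The windows of CLSPN (chr1:35769929-35770228, minus strand), TOPBP1 (chr3:133661892-133662191, minus strand), XRCC6 (chr22:41621045-41621344, plus strand) and, as a member that was not called, FANCD2 (chr3:10026187-10026486, plus strand) were chosen after their values were seen. They are printed below 5′ to 3′ along the gene, with the E2F-type letters in capitals.
CLSPN: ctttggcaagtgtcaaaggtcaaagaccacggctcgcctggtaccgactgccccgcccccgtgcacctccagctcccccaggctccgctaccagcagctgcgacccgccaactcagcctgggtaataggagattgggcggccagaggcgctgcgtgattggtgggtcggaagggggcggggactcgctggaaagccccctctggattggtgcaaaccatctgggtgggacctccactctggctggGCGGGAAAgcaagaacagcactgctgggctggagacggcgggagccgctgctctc
TOPBP1: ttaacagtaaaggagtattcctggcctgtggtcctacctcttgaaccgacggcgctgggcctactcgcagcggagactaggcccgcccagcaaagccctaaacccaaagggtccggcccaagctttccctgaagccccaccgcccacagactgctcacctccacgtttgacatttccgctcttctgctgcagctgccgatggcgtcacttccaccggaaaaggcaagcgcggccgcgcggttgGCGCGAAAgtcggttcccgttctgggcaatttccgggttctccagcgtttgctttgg
XRCC6: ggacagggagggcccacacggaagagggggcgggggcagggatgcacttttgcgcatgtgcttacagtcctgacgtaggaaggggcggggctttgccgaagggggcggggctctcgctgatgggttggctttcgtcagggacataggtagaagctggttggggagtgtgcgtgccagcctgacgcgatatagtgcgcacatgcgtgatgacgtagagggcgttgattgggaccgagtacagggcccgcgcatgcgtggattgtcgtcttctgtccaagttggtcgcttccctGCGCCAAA
FANCD2: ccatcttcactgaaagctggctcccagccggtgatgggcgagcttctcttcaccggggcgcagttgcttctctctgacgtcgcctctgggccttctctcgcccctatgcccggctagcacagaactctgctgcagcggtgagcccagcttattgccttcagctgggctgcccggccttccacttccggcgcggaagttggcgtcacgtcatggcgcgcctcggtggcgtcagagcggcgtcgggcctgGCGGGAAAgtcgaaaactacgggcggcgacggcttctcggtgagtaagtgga

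In these 4 windows the capitals lie close to the start. Counted with the first transcribed base as 1 and the base before it as -1, they begin at -5 in CLSPN, -7 in TOPBP1, 43 in XRCC6 and -2 in FANCD2. FANCD2, which is ubiquitinated to mark crosslinks, was at 82.4, 92.5 and 102 CPM in sgNeg, 105, 99.3 and 104 in sgPRMT5-1, 112, 109.8 and 106 in sgPRMT5-2, 90.1, 97 and 73.9 in sgWDR77-1 and 121, 111 and 91.2 in sgWDR77-2. Its sgPRMT5-2 libraries lay above sgNeg, but the log2 fold change of 0.25 (SE 0.113, adjusted p = 0.0951) did not pass the test. It was called with upper quartile scaling (0.35, adjusted p = 0.0333) and with only the libraries of both groups in the fit (0.26, adjusted p = 0.0172).

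Among the BRCA1 and BRCA2 genes, BRCA1, the ubiquitin ligase subunit that starts recombination, was at 99.3, 105 and 103 CPM in sgNeg, 116, 113 and 126 in sgPRMT5-1, 121, 109 and 106 in sgPRMT5-2, 140.1, 126 and 93.3 in sgWDR77-1 and 150.5, 121 and 104 in sgWDR77-2. It lay above sgNeg with sgPRMT5-1 and sgPRMT5-2 and overlapped with sgNeg in both WDR77 groups, which spread more widely. None of its 4 log2 fold changes, 0.13 to 0.27, passed the test (smallest adjusted p 0.272). BARD1, the subunit that pairs with BRCA1, was at 35.3, 33.9 and 41.6 CPM in sgNeg, 38.4, 44 and 38.5 in sgPRMT5-1, 32.4, 30.9 and 28.2 in sgPRMT5-2, 51.5, 53.9 and 42.4 in sgWDR77-1 and 44.3, 43.8 and 47.7 in sgWDR77-2. Its libraries lay above sgNeg with both WDR77 sgRNAs and below it with sgPRMT5-2. The log2 fold change was 0.42 (SE 0.119, adjusted p = 0.0312) with sgWDR77-1 and, not passing the test, -0.27 (SE 0.125, adjusted p = 0.109) with sgPRMT5-2. The sgWDR77-1 call was lost without sgNeg replicate 1 (adjusted p 0.101) or 2 (0.108) or sgWDR77-1 replicate 1 (0.0647) or 2 (0.116), without the filter (0.06) or with only the libraries of both groups (0.148). PALB2, the bridge between BRCA1 and BRCA2, was at 67.6, 65 and 68.7 CPM in sgNeg, 70.2, 71.5 and 81.7 in sgPRMT5-1, 83.8, 76.5 and 79.3 in sgPRMT5-2, 101, 74.8 and 88.2 in sgWDR77-1 and 86.3, 86.7 and 77.1 in sgWDR77-2. All 12 knockout libraries lay above the 3 narrow sgNeg values. Its call with sgWDR77-1, a log2 fold change of 0.38 (SE 0.109, adjusted p = 0.0302), was lost without sgNeg replicate 1 (0.0723), 2 (0.0886) or 3 (0.0808) or sgWDR77-1 replicate 1 (0.106) or 3 (0.0549), without the filter (0.0517) or with only the libraries of both groups (0.151). BRCA2, which PALB2 brings to the break, was at 50.4, 65.1 and 58.2 CPM in sgNeg, 80.5, 70.3 and 61.5 in sgPRMT5-1, 67, 55.3 and 52.1 in sgPRMT5-2, 109, 63.9 and 58.9 in sgWDR77-1 and 75.9, 64.7 and 64.1 in sgWDR77-2. The groups overlapped with sgNeg, and sgWDR77-1 replicate 1, at 109 CPM, stood apart from its replicates.

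Among RAD51B, RAD51C, RAD51D, XRCC2 and XRCC3, which act in complexes with each other, RAD51C (ENSG00000108384.15, chromosome 17, 58692573 to 58735611) was at 38.7, 31.6 and 50.8 CPM in sgNeg, 47.6, 50.3 and 62.5 in sgPRMT5-1, 61.4, 57 and 62.2 in sgPRMT5-2, 49.4, 39.2 and 33.7 in sgWDR77-1 and 54.9, 45.9 and 39.6 in sgWDR77-2. The sgPRMT5-2 libraries lay above sgNeg, and the other groups overlapped with it. At 152% of sgNeg it had a log2 fold change of 0.61 (SE 0.159, adjusted p = 0.00604) with sgPRMT5-2, a call lost without sgNeg replicate 2 (0.45, adjusted p = 0.0574). XRCC3, which pairs with RAD51C, lay below sgNeg with both WDR77 sgRNAs, at 17 to 21.3 CPM in sgNeg, 7.81 to 16.4 in sgWDR77-1 and 12.2 to 14.9 in sgWDR77-2, without passing the test (-0.63 with adjusted p = 0.0871 and -0.47 with adjusted p = 0.249). XRCC2, RAD51B and RAD51D had log2 fold changes between -0.32 and 0.39 and did not pass it. RAD52, which anneals strands, and RAD54L and RAD54B, which are translocases on DNA, had log2 fold changes of -0.15 to 0.41. RAD54L lay above sgNeg with both PRMT5 sgRNAs and came nearest to the threshold, at 0.28 with sgPRMT5-2 (adjusted p = 0.0664).

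The genes of end resection are the MRE11, RAD50 and NBN complex, its stimulator RBBP8, the nucleases EXO1 and DNA2 and the helicase BLM. Their log2 fold changes lay between -0.18 and 0.45. RBBP8 came nearest to the threshold, at 0.41 with sgWDR77-1 (adjusted p = 0.0542), with its libraries at 104 to 156 CPM above the 76.8 to 103 of sgNeg. RAD50, the ATPase of the complex, was at 7.32, 5.34 and 7.59 CPM in sgNeg, 7.88, 6.38 and 8.34 in sgPRMT5-1, 8.64, 11 and 8.05 in sgPRMT5-2, 8.92, 5.84 and 10.2 in sgWDR77-1 and 11.6, 7.8 and 7.03 in sgWDR77-2. These levels rest on 31 to 65 reads a library, and the value of 0.45 with sgPRMT5-2 had a standard error of 0.242 and an adjusted p of 0.163.

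In the Fanconi core, FANCL (ENSG00000115392.12, chromosome 2, 58159243 to 58241410), the ubiquitin ligase subunit, was at 21.1, 25.5 and 25.5 CPM in sgNeg, 19.1, 17.6 and 21.1 in sgPRMT5-1, 17, 14.6 and 15.1 in sgPRMT5-2, 16.7, 22.8 and 21.5 in sgWDR77-1 and 22, 22 and 22 in sgWDR77-2. The sgPRMT5-2 libraries lay below sgNeg. The highest sgPRMT5-1 library was level with the lowest of sgNeg (21.1 CPM), its unrounded value just below, and both WDR77 groups overlapped with sgNeg. At 65.1% of sgNeg it had a log2 fold change of -0.62 (SE 0.145, adjusted p = 0.00271), which held under all 14 alternatives run. FANCG, a core subunit that binds FANCA, was at 34.9, 33.6 and 37.4 CPM in sgNeg, 31.2, 35.9 and 37.3 in sgPRMT5-1, 31.7, 35.3 and 34.5 in sgPRMT5-2, 19, 26.6 and 26.7 in sgWDR77-1 and 37.8, 36.5 and 26.5 in sgWDR77-2. Its sgWDR77-1 libraries lay below sgNeg, replicate 1 lowest, at a log2 fold change of -0.57 (SE 0.153, adjusted p = 0.0224). The call was lost without sgNeg replicate 1 (0.0535) or 3 (0.0911) or sgWDR77-1 replicate 1 (0.0855), without the filter (0.0509) or with only the libraries of both groups (0.0887). FANCM, the translocase that anchors the core at a crosslink, was at 12.4, 12.9 and 14.1 CPM in sgNeg, 7.88, 12.3 and 9.88 in sgPRMT5-1, 8.03, 10.7 and 10.9 in sgPRMT5-2, 19, 12.8 and 11.3 in sgWDR77-1 and 12.7, 11.7 and 13.5 in sgWDR77-2. With both PRMT5 sgRNAs it lay below sgNeg, but neither -0.42 for sgPRMT5-1 (adjusted p = 0.304) nor -0.43 for sgPRMT5-2 (adjusted p = 0.118) passed the test. FANCA, the core subunit most often mutated in the disease, was at 11.9, 15 and 16.8 CPM in sgNeg, 17.3, 17.3 and 15.2 in sgPRMT5-1, 19.6, 17 and 16.3 in sgPRMT5-2, 12.3, 22.4 and 18.9 in sgWDR77-1 and 20.8, 17.5 and 16.8 in sgWDR77-2. All groups overlapped with sgNeg, at log2 fold changes of 0.20 to 0.34. FANCB, FANCC, FANCE and FANCF, further core subunits, had log2 fold changes between -0.36 and 0.47 and did not pass the test.

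Downstream of the core, BRIP1 (ENSG00000136492.10, chromosome 17, 61679139 to 61863559), a helicase that binds BRCA1, was at 47.9, 54.1 and 51.2 CPM in sgNeg, 57.8, 53.2 and 53.5 in sgPRMT5-1, 53.7, 54.1 and 50.3 in sgPRMT5-2, 86.1, 70.3 and 59.6 in sgWDR77-1 and 66.9, 60.1 and 63.4 in sgWDR77-2. All 6 WDR77 libraries lay above the 3 of sgNeg and also above the 6 PRMT5 libraries. With sgWDR77-1 it was at 139.6% of sgNeg, a log2 fold change of 0.48 (SE 0.116, adjusted p = 0.0115), a call lost without sgNeg replicate 1 (adjusted p 0.0551) or with only the libraries of both groups in the fit (0.107). FANCI, the partner of FANCD2, the scaffold SLX4 and the nuclease subunits MUS81 and EME1 had log2 fold changes between -0.31 and 0.23 and did not pass the test. At break sites, KAT5, an acetyltransferase that activates ATM, was at 29.6, 30.2 and 37.6 CPM in sgNeg, 31.5, 31 and 33.2 in sgPRMT5-1, 29.6, 34.2 and 34.5 in sgPRMT5-2, 27.9, 26.6 and 27.2 in sgWDR77-1 and 28.3, 28.4 and 31.5 in sgWDR77-2. It lay below sgNeg with sgWDR77-1, at a log2 fold change of -0.24 that did not pass the test (adjusted p = 0.237). TP53BP1, which limits resection, and the ubiquitin ligases RNF8 and RNF168, which recruit it, had log2 fold changes between -0.18 and 0.14, with adjusted p of at least 0.184.

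The sgRNAs of a gene were also compared with each other. LIG4 was higher with sgPRMT5-2 than with sgPRMT5-1, at a log2 difference of 0.45 (SE 0.132, adjusted p = 0.0386), with no overlap of the libraries. It was the 1 member higher, where 3.44% of all genes were higher, and limma voom called 0 members lower, where 4.11% of all genes were lower. At an unadjusted p under 0.05, 2 members, BARD1 (-0.40) and ATM (-0.27), were lower, against 13.1% of all genes, and limma-trend called 0 higher and 1 lower. The LIG4 difference passed the test in 7 of 14 alternatives and was lost without sgPRMT5-1 replicate 1 (adjusted p 0.184) or 2 (0.128) or any sgPRMT5-2 replicate (0.159, 0.138 and 0.0502 without 1, 2 and 3), without the filter on low counts (0.0727) or with limma-trend (0.0642), each leaving 0 higher. With only the libraries of these groups in the fit, LIG4, RAD52 and TOPBP1 were higher, or 3 members (6.12%, where 9.94% of all genes were), and BARD1 and ATM were lower, or 2 (4.08%, where 9.3% were). Without sgPRMT5-1 replicate 3, 1 member, BARD1, was lower (2.04%, where 6.59% of all genes were). In the fits that left 0 members higher, 1.17% to 2.91% of all genes were higher.

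XRCC6 was higher with sgWDR77-2 than with sgWDR77-1, at a log2 difference of 0.38 (SE 0.0831, adjusted p = 0.0233), and the libraries did not overlap. This was 1 member higher, where 1.47% of all genes were higher, and 0 lower by limma voom and by limma-trend, where 0.612% of all genes were lower. At an unadjusted p under 0.05, 0 members were lower, against 8.41% of all genes. The difference was lost without sgWDR77-2 replicate 1 (adjusted p 0.157) or 2 (0.064) or with upper quartile scaling (0.0509). It was also lost with only the libraries of both groups in the fit (0.21). Each left 0 higher, where 0.27%, 0.455%, 1.22% and 0.1% of all genes were, in that order. Without sgWDR77-1 replicate 1 or sgWDR77-2 replicate 3, 2 members were higher (4.08%, where 2.28% and 1.53% of all genes were). The median log2 difference between the WDR77 sgRNAs was 0.10 over the members and -0.01 over all genes, and between the PRMT5 sgRNAs it was -0.01 over both.

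Set directly against each other, the PRMT5 and WDR77 knockouts differed in named repair genes in both directions. LIG4 (0.39), RAD51C (0.39), CLSPN (0.33), FANCG (0.28), XRCC6 (0.27) and XRCC5 (0.20) were higher with the PRMT5 sgRNAs in log2 difference, and FANCM (-0.44), BARD1 (-0.43), BRIP1 (-0.32), FANCL (-0.28), ATM (-0.23) and ATR (-0.17) were lower. These are 6 members higher, or 12.2%, where 13.5% of all genes were higher, and 6 lower, also 12.2%, where 12.8% of all genes were lower. These means pool sgRNAs with unlike values. Against sgNeg, LIG4 had 0.50 with sgPRMT5-1 and 0.51 with sgWDR77-2 beside 0.95 with sgPRMT5-2 and 0.16 with sgWDR77-1, and FANCG had -0.57 with sgWDR77-1 and -0.09 with sgWDR77-2. Both shares are near those of all genes, and the median was -0.02 over the members and -0.01 over all genes. The split moved with the scaling: upper quartile gave 9 higher (18.4%, all genes 15.9%) and 2 lower (4.08%, all genes 10.9%), and library totals alone gave 4 higher (8.16%, all genes 10.7%) and 7 lower (14.3%, all genes 15.4%). XRCC6 had a standard error of 0.0583 (adjusted p = 0.00205), BARD1 of 0.0848 (adjusted p = 0.000911), BRIP1 of 0.0816 (adjusted p = 0.00613) and LIG4 of 0.1 (adjusted p = 0.00699), and these 4 calls held under all 20 alternatives run. Only BRIP1, of the 49 members, had all 6 PRMT5 libraries on one side of all 6 WDR77 libraries. How many of all genes lay apart in this way was not counted, so this count has no share to be set beside. The others held in fewer of the 20: RAD51C in 19, CLSPN in 17, FANCM, with 52 to 102 reads a library (adjusted p = 0.0288), in 13, ATM and XRCC5 in 11, ATR in 10, FANCG in 8 and FANCL in 6. FANCG (adjusted p = 0.0556) and FANCL (adjusted p = 0.0559) were also lost with the replicate number as a block. Leaving out sgWDR77-2 replicate 3 left 2 members higher (4.08%, all genes 10.2%) and 3 lower (6.12%, all genes 9.56%). Leaving out sgWDR77-2 replicate 2 left 3 and 3 (6.12% each, all genes 9.91% and 9.73%). Leaving out sgPRMT5-1 replicate 3 left 3 higher (6.12%, all genes 9.92%). Leaving out sgPRMT5-1 replicate 1 or sgPRMT5-2 replicate 1 left 2 lower (4.08%, all genes 10.9% and 9.41%). Leaving out sgPRMT5-2 replicate 3 or sgWDR77-1 replicate 2 left 3 lower (6.12%, all genes 10.4% and 11.7%). Without the filter on low counts 3 were lower (6.12%, all genes 5.67%). Both endothelium markers tested (-1.44 and -0.58) and 1 of 2 melanocyte markers were lower with the PRMT5 sgRNAs. Of 5 squamous keratinocyte markers, 2 were higher and 1 lower, at -0.46 to 1.00. The part of these markers was not tested.

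**Figure D4:**
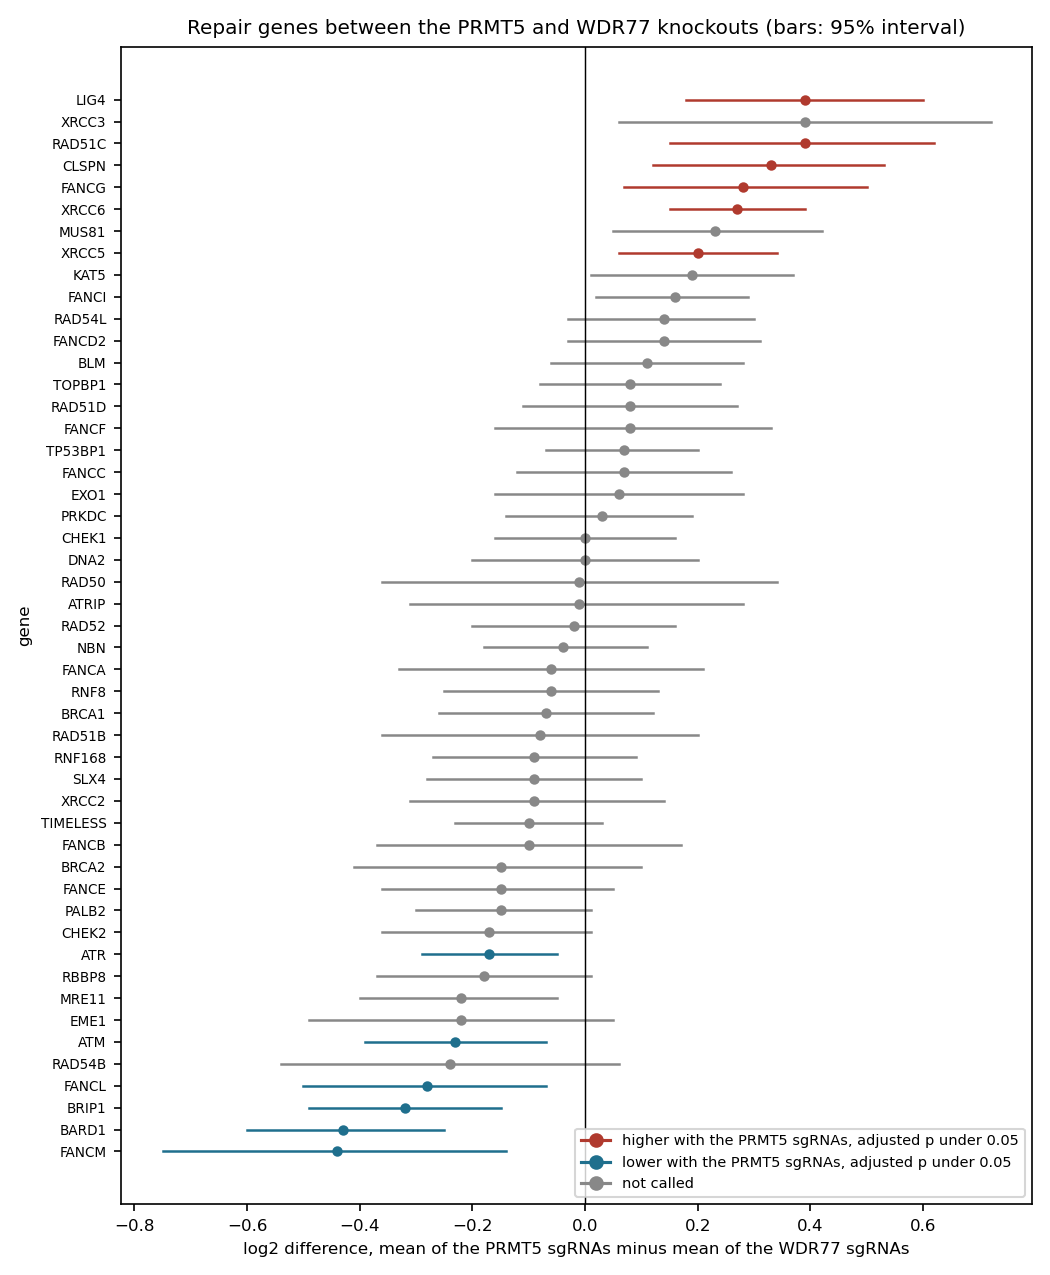
Log2 difference of each of the 49 repair genes between the mean of the PRMT5 sgRNAs (6 libraries) and the mean of the WDR77 sgRNAs (6 libraries), with 95% intervals from the fit. The 6 red genes, LIG4 (0.39) to XRCC5 (0.20), are higher with the PRMT5 sgRNAs and the 6 blue ones, ATR (-0.17) to FANCM (-0.44), are lower, at an adjusted p under 0.05.

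Other genes of the same pathways were taken from fixed lists and described with sgPRMT5-2, the sgRNA with the most calls, where 14.9% of all genes were higher and 16.0% lower. Of the other homologous recombination genes, 1 of 18 tested (5.56%) was higher and 4 (22.2%) were lower, among them RMI2, a partner of BLM (-0.69, SE 0.127, adjusted p = 0.000323), RPA3, a subunit that coats single strands (-0.60, SE 0.122, adjusted p = 0.000829), and SFR1 (-0.50, SE 0.191, adjusted p = 0.0484). Among the other Fanconi genes, 2 of 13 (15.4%) were higher, the USP1 partner WDR48 (0.44, adjusted p = 0.0109) and the ubiquitin ligase RFWD3 (0.44, adjusted p = 0.00633), and 1 (7.69%) was lower, the nuclease ERCC4 (-0.49, adjusted p = 0.0153). Of 16 other checkpoint and signalling genes, 3 (18.8%) were higher, with PAXIP1 (0.60, adjusted p = 0.00435) and MDC1 (0.51, adjusted p = 0.00758), scaffolds at breaks, the largest, and 1 (6.25%) was lower, ETAA1, an activator of ATR (-0.57, adjusted p = 0.0106). In the list of other end joining genes 1 of 13 (7.69%) passed the test, the polymerase POLM, which fell (-0.81, SE 0.228, adjusted p = 0.00977). The medians of these lists were -0.04, 0.11, 0.09 and 0.01. With 13 to 18 genes tested in a list, these shares rest on a few calls each. For sgPRMT5-1, 0 genes of these lists were called (all genes 1.06% higher, 1.72% lower). For sgWDR77-2, 0 were called as well (all genes 1.76% and 3.13%). For sgWDR77-1, 0 were higher (all genes 3.77%). In the order of the lists, 1 (5.56%), 0, 2 (12.5%) and 2 (15.4%) were lower with sgWDR77-1, where 5.57% of all genes were.

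Genes of S phase and of G2/M were set beside the members because many repair genes follow the cycle. With sgPRMT5-2, 6 of 18 S phase genes (33.3%, beside 14.9% of all genes) were higher, with CDC6 (0.52, adjusted p = 0.00211), UHRF1 (0.51, adjusted p = 0.011) and GINS2 (0.43, adjusted p = 0.0257) the largest, and 1, CDCA7, was lower (5.56%, beside 16.0%). Of the 14 G2/M genes tested, 4 (28.6%) were higher, CCNB1 (0.38, adjusted p = 0.00991) and BUB1 (0.37, adjusted p = 0.00655) among them, and 1 (7.14%), CDK1, was lower (-0.38, adjusted p = 0.0025). With sgWDR77-1, 2 S phase genes (MCM7 and RRM1, 11.1%) and 3 G2/M genes (AURKA, CCNB2 and CDK1, 21.4%) were lower, beside 5.57% of all genes. With sgWDR77-2, 1 G2/M gene, BUB1, was higher (7.14%, beside 1.76%), and 0 S phase genes were called. For sgPRMT5-1, 0 of 18 S phase and 0 of 14 G2/M genes were called, beside 1.06% of all genes higher and 1.72% lower. Between the knockouts, 7 S phase genes (38.9%) and 3 G2/M genes (21.4%) were higher with the PRMT5 sgRNAs, beside 13.5% of all genes. With sgWDR77-2 against sgWDR77-1, all 18 S phase and all 14 G2/M genes tested had positive values. The median was 0.26 in each list, beside -0.01 over all genes. Of each list 1 gene was called higher (5.56% and 7.14%, beside 1.47%). Summed over the list and given in percent of the sgNeg mean, the 18 S phase genes were at 95.5, 94 and 111 in sgNeg, 108, 107 and 124 in sgPRMT5-1, 114, 112 and 111 in sgPRMT5-2, 98.5, 93.5 and 82.6 in sgWDR77-1 and 124, 104 and 101 in sgWDR77-2. Their most abundant gene was MCM4. The 15 G2/M genes, with MKI67 the most abundant, were at 96.8, 101 and 102 in sgNeg, 111, 109 and 113 in sgPRMT5-1, 111, 111 and 109 in sgPRMT5-2, 127, 99.2 and 82.6 in sgWDR77-1 and 124, 112 and 103 in sgWDR77-2. The 49 members, with XRCC6 the most abundant, were at 96, 100 and 104 in sgNeg, 112, 109 and 118 in sgPRMT5-1, 116, 114 and 111 in sgPRMT5-2, 110.5, 102 and 91.6 in sgWDR77-1 and 125, 111 and 106 in sgWDR77-2. sgWDR77-1 replicate 1 and sgWDR77-2 replicate 1 were the highest library of their group in all 3 sums. The part of the cycle in the members' values was not tested.

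**Figure D5:**
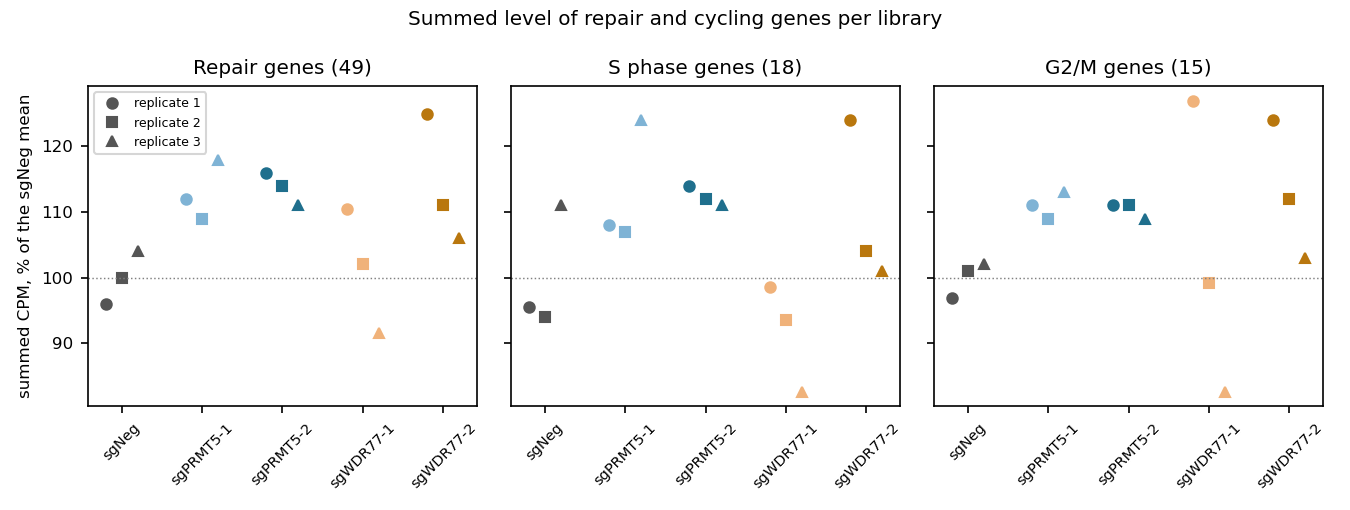
Summed CPM of the 49 repair genes, the 18 S phase genes and the 15 G2/M genes in each library, in percent of the mean of the 3 sgNeg libraries, with a dotted line at 100 and a marker shape for each replicate number. Both PRMT5 groups lie at 107 to 124 in all 3 panels, and the sgWDR77-1 libraries spread from 82.6 to 127.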

How the data were processed

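The authors aligned single-end reads of the 15 HSC-5 libraries to hg38 with STAR, counted them per gene with HTSeq and deposited the read counts, and the authors tested them with DESeq2. The methods name TruSeq RNA v2 and the labels TruSeq Stranded mRNA, and neither the strand setting nor the annotation release was given in the sources used here. The lines of the tables that name no gene were left out of library sizes and tests: outside genes 2.75 to 7.16% of reads, ambiguous 7.09 to 7.93% and placed more than once 9.5 to 13.1%.

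Here, TMM factors (log-ratio trim 0.3, mean trim 0.05) were computed, genes with a mean normalized count of at least 3 were kept, and 1 fit of 5 groups over all 15 libraries was made with limma voom (limma 3.58.1, R 4.3.3). The 4 sgRNAs were each compared with sgNeg, the sgRNAs of a gene with each other, and the mean of the PRMT5 sgRNAs with that of the WDR77 sgRNAs. Benjamini-Hochberg adjustment ran over the 14059 genes tested in each comparison, with a call at an adjusted p under 0.05. The scripts were tested on simulated data. For pairs of replicates of a group, chi-square divided by its degrees of freedom ran from 1.58 to 19.37, where counting alone gives about 1. The highest values, 13.69 and 19.37, were pairs with sgWDR77-1 replicate 1, beside 3.42 for replicates 2 and 3 of that group. Pairs with sgNeg replicate 2 had 9.94 and 6.96, beside 4.11 for replicates 1 and 3. Gene lengths and overlaps came from GENCODE 44, where 60507 identifiers matched. Alternatives were other scalings, other filters, a block on replicate number, limma-trend, fits of only the groups compared, and leaving out each library of the groups compared. Leaving out each library of the other groups was added after the data were seen.

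The members and lists were chosen with earlier results of these data known. Values in every library were given for BRCA1, BRCA2, FANCA, FANCD2, ATM, CHEK1 and KAT5, for the 3 called members with the largest rise and the 3 with the largest fall against sgNeg, for the members with the highest and lowest level per length, and for the 3 called with the largest difference in each direction between sgRNAs. From the other lists, the 3 called genes with the largest absolute log2 fold change with sgPRMT5-2 were named. TOPBP1 and XRCC5 were added after their values were seen, as were other genes named beside small counts.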

Additional observations from a re-analysis of the deposited data

Results flagged for a closer look

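Members that differed between sgRNAs of the same gene were LIG4, higher with sgPRMT5-2 than with sgPRMT5-1 (log2 difference 0.45), and XRCC6, higher with sgWDR77-2 than with sgWDR77-1 (0.38). Whether efficiency of targeting or another property of an sgRNA sets them apart was not tested.

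Members that differed between the mean of the PRMT5 sgRNAs and the mean of the WDR77 sgRNAs were LIG4 (0.39), RAD51C (0.39), CLSPN (0.33), FANCG (0.28), XRCC6 (0.27), XRCC5 (0.20), ATR (-0.17), ATM (-0.23), FANCL (-0.28), BRIP1 (-0.32), BARD1 (-0.43) and FANCM (-0.44), where a positive value is higher with the PRMT5 sgRNAs. The means pool sgRNAs with unlike values: against sgNeg, LIG4 had 0.50 with sgPRMT5-1 and 0.51 with sgWDR77-2, and FANCG had -0.57 with sgWDR77-1 but -0.09 with sgWDR77-2, -0.02 with sgPRMT5-1 and -0.06 with sgPRMT5-2. Whether the targeted gene or single sgRNAs set these genes apart was not tested. Of these calls, those of ATM and XRCC5 held in 11, ATR in 10, FANCG in 8 and FANCL in 6 of 20 alternatives. Groups of 3 libraries were not tested for outliers.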

How the results depend on the processing

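With sgPRMT5-1 against sgNeg, 1 member was higher without the filter on low counts, in place of 0 (0.506% of all genes). With only the libraries of the groups compared 1 was also higher (1.59% of all genes). With sgPRMT5-2, upper quartile gave 9 higher (20.4% of all genes) and library totals alone gave 3 lower (19.2%). Only the libraries of the groups compared gave 11 higher and 2 lower (20% and 20.6% of all genes in that fit). Leaving out a library gave 6 higher and 1 to 2 lower (10.7% to 13.2% and 10.6% to 14.5% of all genes).

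With sgWDR77-1, library totals alone and the replicate block each gave 4 higher (3.85% and 3.42% of all genes). The fit without the filter gave 1 higher and 0 lower (1.48% and 2.11%). Only the libraries of the groups compared gave 0 higher and 0 lower (0.901% and 1.73% of all genes in that fit). Leaving out a library gave 1 to 4 higher and 0 to 2 lower (1.49% to 4.45% and 2.94% to 6.06% of all genes). With sgWDR77-2, limma-trend and a mean of at least 10 each gave 3 higher (1.91% and 2.23% of all genes). RLE, upper quartile, library totals alone, the replicate block and only the libraries of the groups compared each gave 1 higher (2.04%). Of all genes 1.66%, 1.98%, 1.51%, 1.49% and 1.9% were, in that order. Leaving out a library gave 0 to 2 (0.848% to 1.42% of all genes).

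Between the PRMT5 sgRNAs, no filter and limma-trend each gave 0 higher (1.58% and 2.91% of all genes). Only the libraries of the groups compared gave 3 higher and 2 lower (9.94% and 9.3% of all genes in that fit). Library totals alone, a mean of at least 10 and limma-trend each gave 1 lower (4.7%, 5.36% and 4.69% of all genes). Leaving out a library gave 0 to 1 higher and 0 to 1 lower (1.17% to 4.78% and 1.24% to 6.59% of all genes). Between the WDR77 sgRNAs, upper quartile and only the libraries of the groups compared each gave 0 higher (1.22% and 0.1% of all genes). Leaving out a library gave 0 to 2 higher (0.27% to 2.28% of all genes). For PRMT5 against WDR77, upper quartile gave 9 higher and 2 lower (15.9% and 10.9% of all genes), library totals alone 4 and 7 (10.7% and 15.4%), no filter 5 and 3 (5.53% and 5.67%), the replicate block 5 and 6 (12.9% and 12.5%), limma-trend 5 and 7 (13.1% and 13.6%), only the libraries of the groups compared 5 and 4 (12.8% and 12.2%), and leaving out a library gave 2 to 8 higher and 2 to 6 lower. In these ranges the library left out belonged to a group compared. The range for PRMT5 against WDR77 had 9.91% to 16% of all genes higher and 9.41% to 14.9% lower. Leaving out a library of another group, chosen after the data were seen, gave 0 to 4 higher for sgPRMT5-1 (all genes 0.69% to 3.13%). It gave 6 to 8 for sgPRMT5-2 (14.1% to 18.4%) and 1 to 8 for sgWDR77-2 (1.4% to 4.3%). Each was highest without sgWDR77-1 replicate 1. Between the PRMT5 sgRNAs 0 to 1 were lower (3.63% to 7.57%). For PRMT5 against WDR77, leaving out a sgNeg library gave 5 higher and 5 to 6 lower (13% to 13.3% and 12.2% to 12.7% of all genes). FANCG was lost without any one sgNeg library, and FANCL without sgNeg replicate 2 or 3. These losses lie outside the 20 alternatives counted. The cause of these moves was not tested.

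The direction turned for small values that were not called. BRCA2 with sgPRMT5-2 was -0.05 with library totals alone and -0.09 to 0.10 with a library left out. ATM with sgPRMT5-1 was -0.01 with library totals alone and -0.05 to 0.18 with a library left out, and with sgWDR77-2 -0.02 to 0.21. CHEK1 with sgPRMT5-1 was -0.01 with RLE, -0.04 with library totals alone and -0.05 to 0.07 with a library left out, and with sgWDR77-1 -0.09 to 0.09. KAT5 with sgPRMT5-1 was 0.03 with upper quartile and -0.08 to 0.10 with a library left out, and with sgPRMT5-2 -0.04 with library totals alone and -0.04 to 0.13. FANCD2 with sgWDR77-1 was -0.17 to 0.03. The cause was not tested.

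Of PRMT5 against WDR77, the calls of BARD1, BRIP1, LIG4 and XRCC6 held in 20 of 20 alternatives, RAD51C in 19, CLSPN in 17, FANCM in 13, ATM and XRCC5 in 11, ATR in 10, FANCG in 8 and FANCL in 6.

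In the fit with a replicate block, 1 member was higher with sgWDR77-2, with ATR at an adjusted p of 0.0579, and for PRMT5 against WDR77 the calls of FANCG (0.0556) and FANCL (0.0559) were lost. The block added RBBP8 with sgWDR77-1 (0.41, adjusted p 0.0462) and MRE11 for PRMT5 against WDR77 (-0.23, adjusted p 0.0424). Over all genes, calls went from 391 to 316 with sgPRMT5-1, 4341 to 4194 with sgPRMT5-2, 1313 to 1190 with sgWDR77-1, 688 to 591 with sgWDR77-2, 1061 to 999 between the PRMT5 sgRNAs, 292 to 181 between the WDR77 sgRNAs and 3688 to 3560 for PRMT5 against WDR77. Of 30 same-numbered pairs, 3 had a correlation over 0.1 (-0.46 to 0.37), so the numbers were not taken to pair the samples.

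The share of higher genes among all genes called was 38.1% with sgPRMT5-1, 48.3% with sgPRMT5-2, 40.4% with sgWDR77-1 and 45.5% between the PRMT5 sgRNAs under TMM, and 49.4%, 62.9%, 52% and 59.1% under upper quartile. Under library totals alone it was 27.1% with sgPRMT5-1, 37.9% with sgPRMT5-2, 60% in place of 70.5% between the WDR77 sgRNAs and 41% in place of 51.3% for PRMT5 against WDR77. The cause was not tested.

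With 3 libraries a group and 5146711 to 6730428 reads on genes, small differences of weakly expressed members such as RAD50 and FANCM were hard to detect. The counts do not tell apart fewer transcripts per cell and a different mix of cells, and reads shared by overlapping genes cannot be separated.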
